A study of Mus musculus with 4 samples.

Results

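The cytotoxic effector genes Gzma, Gzmb, Gzmk, Gzmm, Prf1, Nkg7, Fasl, Ifng, Ctsw and Cst7, 10 of the 32285 genes in the files, were chosen by symbol and followed in bone marrow of 5TMM mice, a model of multiple myeloma. Young C57BL/KawRij mice had received luciferase-marked 5TGM1 mouse myeloma cells through a vein. All 4 mice carried these cells, and no marrow without myeloma was measured. The vehicle group (2 libraries, replicates 1 and 2) and the PM group (2 libraries, 10 mg/kg) were sampled after 24 h of treatment. PM is purinostat mesylate, an inhibitor of class I and IIb histone deacetylases. The question was whether the transcripts of killer cells moved with PM in natural killer (NK) cells and CD8 T cells, and whether Nkg7 and Cst7, which myeloid cells also make, moved in those. Red cells had been lysed before loading.

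Killer cells release granules onto their targets. Perforin (Prf1) opens the target membrane, and granzymes (Gzma, Gzmb, Gzmk, Gzmm) are serine proteases that enter and start cell death. Nkg7 is a membrane protein of cytotoxic granules, cathepsin W (Ctsw) is a papain-like protease of NK and CD8 T cells, and cystatin F (Cst7) inhibits cathepsins that activate granzymes. Fas ligand (Fasl) kills through the death receptor Fas, and interferon gamma (Ifng) is a cytokine that activates macrophages. mRNA of Gzmb and Prf1 is present in resting mouse NK cells before much of the protein is made, so transcript levels are not protein levels.

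In the GENCODE M21 annotation of GRCm38 the genes lie on 7 chromosomes. Gzma (chr13:113093825-113100981) and Gzmk (chr13:113171608-113225908) are on the minus strand of chromosome 13, and Gzmb is at chr14:56258838-56262260. Gzmm (chr10:79689020-79695261), Prf1 (chr10:61297833-61304680) and Ifng (chr10:118441046-118445892) are on chromosome 10. Nkg7 is at chr7:43437073-43438249, Fasl at chr1:161780689-161788495, Ctsw at chr19:5465043-5468507 and Cst7 at chr2:150570415-150578944. Gene models of Esm1 and Fibp overlap Gzmk and Ctsw on the other strand, and Gm49751 overlaps Ifng on the same strand, so that reads there are uncertain. The promoters of Nkg7 and Cst7, which had levels in HSPC (hematopoietic stem and progenitor cells), are shown beside that of Prf1, whose level was lymphoid. They are RefSeq sequences of GRCm38.p6 on the plus strand, 5′ to 3′, from 250 bases before to 50 after the transcription start, with motif matches in capitals.
Nkg7, chr7:43436888-43437187: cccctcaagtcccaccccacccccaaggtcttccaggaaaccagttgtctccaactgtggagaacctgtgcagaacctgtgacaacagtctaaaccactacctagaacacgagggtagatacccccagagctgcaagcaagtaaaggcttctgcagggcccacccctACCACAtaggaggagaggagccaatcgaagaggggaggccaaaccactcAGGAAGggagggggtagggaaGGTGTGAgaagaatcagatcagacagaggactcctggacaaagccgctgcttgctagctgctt
Cst7, chr2:150570165-150570464: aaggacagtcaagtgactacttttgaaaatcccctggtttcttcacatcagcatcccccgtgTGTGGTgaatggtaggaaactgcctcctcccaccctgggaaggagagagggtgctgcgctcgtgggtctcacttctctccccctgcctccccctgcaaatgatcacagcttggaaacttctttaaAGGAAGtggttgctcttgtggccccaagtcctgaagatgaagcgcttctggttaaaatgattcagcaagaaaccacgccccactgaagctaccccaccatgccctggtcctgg
Prf1, chr10:61297586-61297885: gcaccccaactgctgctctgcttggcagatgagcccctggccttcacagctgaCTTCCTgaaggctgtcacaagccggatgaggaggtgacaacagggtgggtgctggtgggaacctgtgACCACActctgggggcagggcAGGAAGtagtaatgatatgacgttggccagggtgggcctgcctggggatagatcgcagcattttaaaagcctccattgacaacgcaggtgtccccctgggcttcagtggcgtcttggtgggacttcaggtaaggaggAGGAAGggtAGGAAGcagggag
The motifs searched on both strands were AGGAAG (ETS core), TGTGGT (Runx), GGTGTGA (T-box) and GGGCGG (GC box). Of all 32851 promoters in the table, 35.4% held the ETS core, 16.8% the Runx motif, 3.98% the T-box motif and 35.7% the GC box. The Nkg7 promoter held the ETS core, the Runx motif and, 13 bases before the RefSeq start, the T-box motif. That start lies downstream of the GENCODE start of Nkg7 given above, and the ETS core and T-box matches lie inside the GENCODE gene. The Cst7 and Prf1 promoters held the ETS core and the Runx motif and none of the other 2. Promoters of 9 of the 10 genes matched by symbol, and a match is a description of letters, not of binding.

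The libraries held 69828595 to 109447030 unique molecular identifiers (UMIs, each a captured transcript) on 8242 to 13848 barcodes. Barcodes with fewer than 300 genes or over 20% mitochondrial UMIs were left out, and 7826 to 13387 cells per library remained. Their median depth was 4717 and 4805 UMIs with PM and 6067 and 5330.5 with vehicle. Of 41226 distinct barcodes, 165 occurred in 2 libraries and 1 in 3. UMIs were summed per library over the cells of a class and scaled to 1000000 UMIs of that class (CPM), a level that 3′ counting does not tie to gene length. Free RNA of other cells can enter any droplet. Mpo, Elane, Prtn3 and Ctsg, granule genes of HSPC, summed to 90.2 and 77.1 CPM in B cells with vehicle and to 503 and 146 CPM with PM. Both PM libraries were thus higher in transcripts that B cells are not known to make, and PM replicate 1 was highest.

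Outside lymphoid cells, Nkg7 and Cst7 were highest in HSPC and Gzmb in eosinophil/basophil progenitors. The latter class was a single cluster, led by Prss34, Mcpt8 and Cd200r3. A cluster of 589 cells led by the eosinophil genes Prg2, Prg3 and Epx stayed unnamed and is in no class. Prf1 was at 390 ± 112 CPM (SD, n = 4 libraries) in CD3-negative Ncr1-positive cells and at 75.9 ± 7.81 CPM in CD8 T cells. Outside the T and NK classes its mean was at most 4.03 CPM. Nkg7 was at 892 ± 222 CPM in CD3-negative Ncr1-positive cells, 563 ± 150 CPM in T cells without Cd8 and 555 ± 84.9 CPM in CD8 T cells, and the libraries of these classes overlapped. HSPC followed with 437 ± 62.2 CPM, overlapping CD8 T cells, and eosinophil/basophil progenitors with 244 ± 72.5 CPM. Neutrophils (24.5 ± 14.6 CPM) and monocytes with their progenitors (mono&prog, 23.7 ± 15.1 CPM) were far lower. Cst7 was highest in HSPC (163 ± 9.38 CPM) and eosinophil/basophil progenitors (158 ± 14.3 CPM), which overlapped. CD8 T cells (110 ± 16.8 CPM) and CD3-negative Ncr1-positive cells (70.0 ± 13.8 CPM) came below them. Gzmb was at 77.2 ± 53.7 CPM in eosinophil/basophil progenitors, against 25.9 ± 16.98 CPM in CD8 T cells and 152 ± 63.2 CPM in CD3-negative Ncr1-positive cells, and the progenitors overlapped both. It was at 42.5 and 51.4 CPM with vehicle and 57.8 and 157 CPM with PM there. The difference did not pass (log2 fold change 1.15, SE 0.52, edgeR, adjusted p = 0.871), in a class with 0.16% of genes called. A single cell held 9.38% and 27.3% of the Gzmb UMIs of these progenitors with vehicle and 43.5% and 12.5% with PM.

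**Figure D1:**
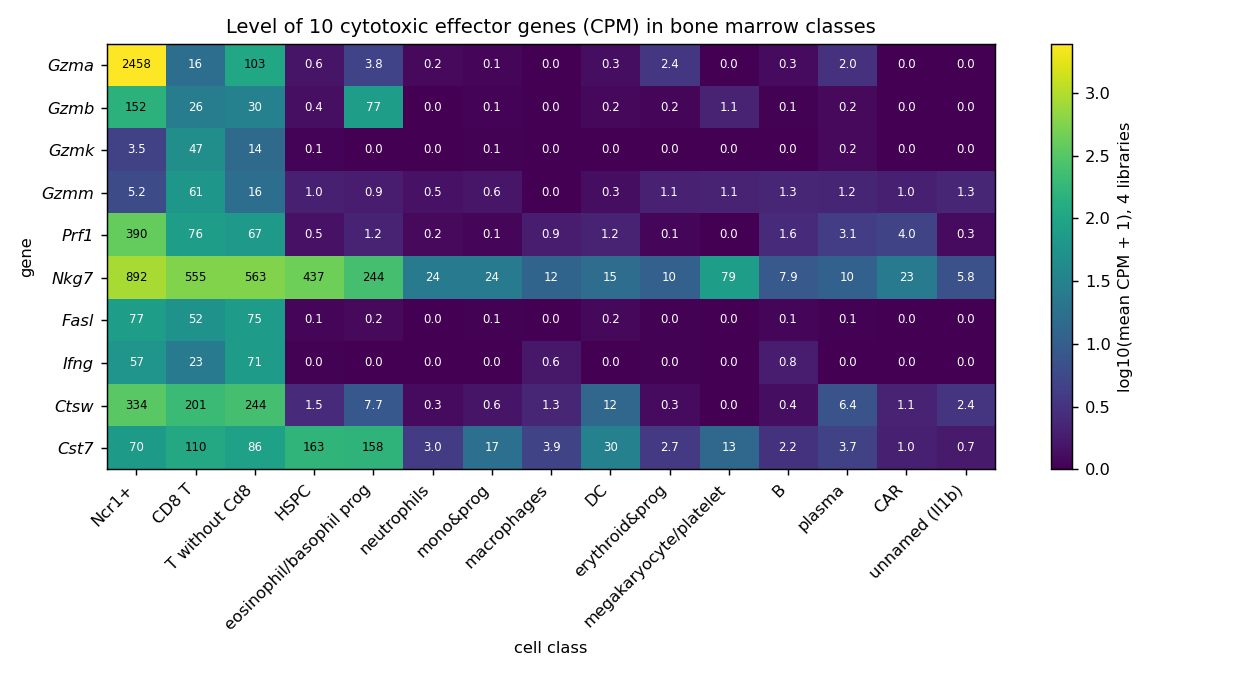
Mean CPM over 4 libraries of the 10 genes (rows) in 15 cell classes (columns), with color on a log10(CPM + 1) scale and the CPM in each field. Prf1 reaches 390 CPM in CD3-negative Ncr1-positive cells and at most 4.03 CPM outside T and NK classes, while Nkg7 and Cst7 also reach 437 and 163 CPM in HSPC.

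In CD3-negative Ncr1-positive cells no member passed the test with PM. These were cells with a UMI of Ncr1, the NK receptor NKp46, and none of Cd3d, Cd3e or Cd3g. They numbered 25 and 38 with vehicle and 78 and 42 with PM, or 0.378% ± 0.152 and 0.518% ± 0.0916 of the cells (exact two-sided permutation test, p = 0.67, where 2 against 2 libraries cannot go below 0.33). Of the 183 cells, 83.1% held Klrb1c, 91.8% held Tyrobp and 0.546% held Trac, and 89.1% lay in T/NK clusters. Some held T cell transcripts, since Trbc2 was in 33.3% of them (56.0% and 28.9% with vehicle, 30.8% and 28.6% with PM) and Trdc in 17.5%. Subclusters led by NK genes held 74.3% of them, with 56.0% and 76.3% with vehicle and 70.5% and 90.5% with PM. They held UMIs of a median of 4 of the 10 genes. The HSPC granule genes were at 2768 and 68.3 CPM with vehicle and at 3086 and 1632 CPM with PM in this gate, and their part in the values was not tested.

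Gzma, the most abundant member, was at 1976 and 3526 CPM with vehicle and at 1420 and 2911 CPM with PM. Prf1 was at 391 and 493 CPM against 234 and 442 CPM. Nkg7 was at 841 and 1039 CPM against 600 and 1088 CPM. In all 3 the groups overlapped, and PM replicate 1 was the lowest library. In PM replicate 1 the gate held 533126 UMIs, and its cells in T/NK clusters held 244725 of them. In vehicle replicates 1 and 2 these were 139786 of 186751 and 191306 of 205021 UMIs, and in PM replicate 2 they were 159040 of 167313. The part of cells outside T/NK clusters in these values was not tested. Gzmb (129 and 151 against 90.0 and 239 CPM), Fasl (48.2 and 92.7 against 22.5 and 143 CPM) and Ctsw (289 and 385 against 214 and 448 CPM) had both the lowest and the highest library in the PM group. Ifng (80.3 and 43.9 against 37.5 and 65.7 CPM) and Cst7 (58.9 and 73.2 against 88.2 and 59.8 CPM) overlapped too. The 8 genes that passed the filter on low counts had log2 fold changes from −0.46 (Prf1, SE 0.39) to 0.20 (Cst7, SE 0.43), with SE of 0.34 to 0.81. A call needed an adjusted p under 0.05 and a fold change beyond 0.5 on the log2 scale. None of the 8 was called (edgeR, adjusted p of 1.0 for each), nor was any of 3967 genes (0%), of which 52 had an unadjusted p under 0.05. DESeq2 called 0 genes as well. Gzmk and Gzmm, with 3 and 6 UMIs in all, were not tested.

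CD8 T cells, with a Cd3 UMI, a UMI of Cd8a or Cd8b1 and none of Cd4, numbered 64 and 72 with vehicle and 327 and 225 with PM. As a share of all cells they were 0.806% ± 0.162 with vehicle and 2.44% ± 0.0108 with PM, without overlap (exact permutation p = 0.33). Their makeup differed. UMIs of Ccr7 or Lef1, genes of naive T cells, were in 29.7% and 62.5% of the cells with vehicle and in 72.8% and 68.4% with PM. A subcluster led by Klra1, Klra6 and Trdc held 42.2% and 27.8% of them with vehicle and 11.3% and 11.6% with PM.

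Among the members, Fasl had the clearest difference in these cells. It was at 81.8 and 67.4 CPM with vehicle and at 28.0 and 31.5 CPM with PM, from 29, 26, 56 and 37 UMIs, and the groups did not overlap. Its log2 fold change was −1.28 (SE 0.29) and did not pass (edgeR, adjusted p = 0.197), in a class with 0.0364% of 8249 genes called. Over the alternatives its adjusted p ran from 0.0237, without a filter on low counts and without vehicle replicate 2, to 1.0 with DESeq2. Gzmk was at 87.4 and 38.9 CPM against 22.5 and 39.1 CPM (−1.02, SE 0.40, adjusted p = 0.655), with an overlap. Gzmm (76.1 and 70.0 against 46.0 and 53.6 CPM), Ctsw (231 and 231 against 151 and 191 CPM), Nkg7 (649 and 591 against 451 and 528 CPM) and Cst7 (130 and 114 against 89.1 and 108 CPM) were lower in both PM libraries. Their log2 fold changes were −0.51 (SE 0.27), −0.40 (SE 0.21), −0.30 (SE 0.20) and −0.27 (SE 0.23), and none passed (adjusted p of 0.782, 0.765, 0.820 and 0.879). Cells of this gate in T/NK clusters held 289726 of its 354631 and 350344 of its 385896 UMIs with vehicle. With PM they held 1405939 of 1998535 and 1079794 of 1175576 UMIs. The part of cells outside T/NK clusters in the member values was not tested. Prf1 was at 79.0 and 72.6 CPM against 67.0 and 85.1 CPM (0.04, SE 0.26), Gzmb at 50.8 and 12.96 CPM against 22.0 and 17.9 CPM, and Ifng at 25.4 and 20.7 CPM against 10.5 and 36.6 CPM, each with an overlap. How many of all genes had CPM without overlap between the groups in CD8 T cells was not computed.

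Gzma had 0 and 3 UMIs in CD8 T cells with vehicle and 76 and 20 with PM (2.83, SE 0.89, edgeR, adjusted p = 0.511). A single cell held 59.2% of the UMIs of PM replicate 1. The genes called in CD8 T cells were Elane (3.62, SE 0.28), Mpo (3.58, SE 0.33) and the growth factor receptor gene Igf1r (2.19, SE 0.31), all higher with PM and named after their values were seen. Elane and Mpo are myeloid granule genes, and the sum of the HSPC granule genes was 581 and 386 CPM with vehicle and 2647 and 1780 CPM with PM in this gate. Its part in the lower member levels was not tested. By the share of cells with a UMI, 8 of the 10 genes were lower in both PM libraries than in both vehicle libraries, as were 16.4% of the 8249 genes tested. Once cells had been thinned to 1500 UMIs at random, 6 of the 10 were in 1 draw and 4 in a second, in which 19.7% of the 8249 were. Prf1 turned from lower to higher in both PM libraries in the first draw (10.03% against 11.8%), Gzma was higher in both as well, and Ifng overlapped. For Nkg7 the share was 90.4% ± 1.84 against 76.0% ± 2.45, and 59.9% ± 1.76 against 47.2% ± 1.98 after thinning (58, 72, 325 and 222 cells deep enough, exact permutation p = 0.33 for both). For Fasl it was 28.2% ± 6.51 against 12.9% ± 0.0317, and 11.6% ± 0.677 against 5.92% ± 0.543 after thinning.

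In the 232 CD8 T cells without Ccr7 and Lef1 UMIs (45, 27, 89 and 71 per library), Fasl again did not overlap, at 90.7 and 133 CPM against 45.5 and 50.05 CPM (−1.11, SE 0.38, edgeR, adjusted p = 0.488). Gzmk was at 90.7 and 104.9 CPM against 61.9 and 100.1 CPM (−0.24, SE 0.37). Nkg7 was at 544 and 944 CPM against 548 and 726 CPM (−0.17, SE 0.30). Both of these overlapped. Ctsw did not, at 231 and 305 CPM against 156 and 195 CPM (−0.55, SE 0.29, adjusted p = 0.789). None of the 9 members tested passed, where 0.151% of 5304 genes were called. How many of all genes did not overlap here was not computed. Makeup still differed between groups in this gate. Vehicle libraries had 40.0% and 37.0% of its cells in the subcluster led by Klra1, Klra6 and Trdc, against 19.1% and 14.1% in PM libraries. The HSPC granule genes were at 821 and 76.3 CPM with vehicle and at 4523 and 5575 CPM with PM in these cells. Those lying in T/NK clusters held 177609 of 242514 and 104899 of 104899 UMIs with vehicle. With PM they held 293995 of 549594 and 263874 of 359656 UMIs. Limited to T/NK clusters, 0 of 4183 genes were called. The part of this makeup, of HSPC transcripts and of cells outside T/NK clusters in the values, those of Fasl and Ctsw among them, was not tested. No member was called for a different PM effect in CD3-negative Ncr1-positive cells and CD8 T cells (interaction with the library as a block, 0.0439% of 6831 genes called). Nor was any when the former were set against these Ccr7- and Lef1-negative cells (0.0779% of 5138 called). For Fasl the first difference was 0.94 (SE 0.74, edgeR, adjusted p = 1.0).

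**Figure D2:**
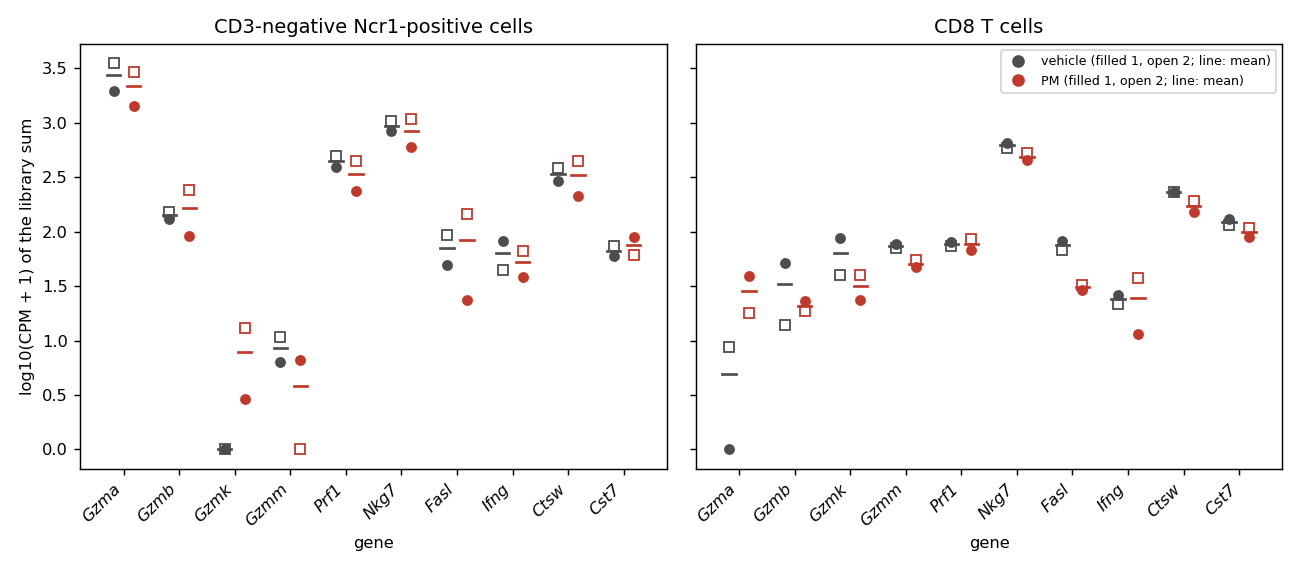
Level of each gene per library, as log10(CPM + 1), in CD3-negative Ncr1-positive cells (left) and CD8 T cells (right), with vehicle in grey, PM in red, replicate 1 filled, replicate 2 open and a line at the group mean. Most vehicle and PM points interleave at the left, and at the right Fasl has 81.8 and 67.4 CPM with vehicle and 28.0 and 31.5 CPM with PM.

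Over the cells of both T/NK clusters, Gzma fell with PM. It was at 609 and 780 CPM with vehicle and at 353 and 330 CPM with PM, without overlap (−0.999, SE 0.15, edgeR, adjusted p = 0.00264), where 0.789% of 9882 genes were called lower. It passed with DESeq2, without TMM scaling and without each library in turn (−1.18 to −0.81). Prf1 (166 and 161 against 116 and 109 CPM, adjusted p = 0.0826) and Fasl (88.5 and 77.3 against 47.2 and 58.3 CPM, adjusted p = 0.0820) were lower in both PM libraries and did not pass. The makeup of the sum moved with it. Cluster 24, led by Gzma, Klra4, Klra8 and Ncr1, was 18.5% and 21.1% of T/NK cells with vehicle and 12.96% and 12.38% with PM. Within cluster 24 Gzma overlapped, at 2076 and 3436 CPM against 2732 and 2567 CPM, and within cluster 8, which holds the other T/NK cells, it was at 21.3 and 21.8 CPM against 26.2 and 14.0 CPM. T/NK cells as a whole were 3.07% ± 0.373 of all cells with vehicle and 5.97% ± 0.194 with PM. Cluster 24 numbered 48 and 55 cells with vehicle and 106 and 67 with PM, so its lower share is one among T/NK cells. In the sum alone, a smaller share of a cell type and less RNA per cell cannot be told apart. The part of the makeup in the lower Gzma sum was not tested.

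Of the lists of genes that act with the members, none had a called gene in CD3-negative Ncr1-positive cells or CD8 T cells. In CD8 T cells the median log2 fold change was −0.21 over 22 granule pathway genes, −0.90 over 9 effector cytokines and death ligands and −0.57 over 28 NK receptors, against 0.02 over all genes tested. In CD3-negative Ncr1-positive cells these medians were 0.10 over 18 genes, 0.78 over 5 and −0.03 over 29, against 0.008 over all genes tested. In the T/NK clusters, the genes named here were chosen after their values were seen. Serpinb9, an inhibitor of granzyme B that protects killer cells, was the 1 gene called of 22 in the granule pathway, with 136 and 127 CPM against 69.9 and 65.7 CPM (−0.93, SE 0.15, edgeR, adjusted p = 0.00399). Of 12 cytokine and death ligand genes the chemokine gene Ccl5 was called, with 2561 and 2189 CPM against 1542 and 1375 CPM. Of 35 NK receptor genes Klrb1c, Klri2, Klra4 and Klra8 were called, with Klri2 at 105 and 128 CPM against 46.0 and 56.5 CPM. Of 21 transcription factor genes Irf8 was called, with 167 and 125 CPM against 63.5 and 81.5 CPM. All 7 were lower with PM, beside 0.789% of all 9882 genes called lower in these clusters. The share of cluster 24 was lower too.

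In T cells without a Cd8 UMI, Gzma, Gzmb, Ifng, Nkg7, Fasl and Ctsw were lower in both PM libraries than in both vehicle libraries. The share of all genes that separated in this way was not computed for this class. Gzma was at 240 and 106 CPM with vehicle and at 36.1 and 27.7 CPM with PM (−2.41, SE 0.44, edgeR, adjusted p = 0.289). Gzmb was at 61.2 and 27.5 CPM against 13.01 and 17.7 CPM (−1.57, SE 0.39, adjusted p = 0.118). Ifng was at 133 and 64.2 CPM against 38.3 and 49.8 CPM (−1.20, SE 0.29, adjusted p = 0.163). Nkg7 (772 and 547 against 516 and 416 CPM), Fasl (92.5 and 78.9 against 55.7 and 71.95 CPM) and Ctsw (299.6 and 246 against 192 and 238 CPM) were lower by less, at −0.49 (SE 0.18), −0.44 (SE 0.22) and −0.35 (SE 0.17) on the log2 scale (adjusted p of 0.513, 0.642 and 0.637). None of the 6 passed, where 0.061% of 8199 genes were called. The 5 genes called were named after their values were seen. Cd4 (1.37, SE 0.26), Igfbp4 (3.41, SE 0.58), Ly6c1 (3.56, SE 0.61) and Iglc2 (4.79, SE 0.78) were higher with PM. Top2a (−1.65, SE 0.21) was lower. The part of a shift in makeup in the lower member levels was not tested. Gzma passed with DESeq2 (adjusted p = 0.000485) and when vehicle replicate 2, PM replicate 1 or PM replicate 2 was left out. Few cells carried Gzma, since 3 cells held 56.2% of its UMIs in vehicle replicate 1 and all of them in vehicle replicate 2.

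In mono&prog, Nkg7 rose with PM. It was at 10.5 and 12.9 CPM with vehicle and at 42.9 and 28.3 CPM with PM, from 160, 142, 753 and 215 UMIs, and both PM libraries lay above both vehicle libraries. The log2 fold change was 1.61 (SE 0.25, edgeR, adjusted p = 0.0436), where 1.2% of 11772 genes were called higher. It did not pass when PM replicate 1 (1.21, adjusted p = 0.131) or vehicle replicate 1 (1.46, adjusted p = 0.116) was left out, or when called doublets were (1.78, adjusted p = 0.0654). Called doublets made up 10.02% and 6.75% of mono&prog cells with vehicle and 16.3% and 7.89% with PM. Of mono&prog cells, 6.74% (95% Clopper-Pearson interval 5.33 to 8.39) and 7.69% (5.88 to 9.85) held an Nkg7 UMI with vehicle, and 19.9% (17.8 to 22.2) and 14.7% (11.8 to 17.9) with PM. These intervals cover counting error only. Thinned to 1500 UMIs (1092, 726, 1332 and 537 cells), the shares were 0.641% and 0.827% against 4.50% and 2.98%. In B cells the shares were 0.826%, 0.917%, 3.005% and 1.90%, or 0.943%, 0.325%, 1.54% and 0.852% after thinning, at median depths of 2164 to 2572.5 UMIs against 10095 to 11236 in mono&prog. The thinned vehicle shares of mono&prog were thus no higher than the highest in B cells, and both PM shares were above all 4.

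Cst7 was at 14.7 and 14.7 CPM in mono&prog with vehicle and at 20.4 and 16.3 CPM with PM (0.32, SE 0.17, edgeR, adjusted p = 0.427). After thinning, 1.56% and 1.52% of cells held a UMI with vehicle and 2.03% and 1.12% with PM, with an overlap. The other 8 genes had at most 23 UMIs in any mono&prog library and did not pass the filter on low counts.

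In neutrophils Nkg7 was at 12.5 and 14.4 CPM with vehicle and at 44.2 and 26.8 CPM with PM, without overlap. The change of 1.31 (SE 0.30) did not pass (edgeR, adjusted p = 0.0768), where 5.77% of 11946 genes were called higher. It passed with DESeq2 (adjusted p = 5.4e-06) and under 7 more of the 12 alternatives, with an adjusted p of up to 0.37 over all of them. Cst7 was at 2.42 and 1.80 CPM against 4.30 and 3.44 CPM (0.76, SE 0.24, adjusted p = 0.0899). Ctsw had 3 and 4 UMIs against 19 and 10 (1.94, SE 0.65, adjusted p = 0.10). The PM effect on Nkg7 in neutrophils minus that in mono&prog was −0.27 (SE 0.14, edgeR interaction, adjusted p = 0.300, 5.19% of 12908 genes called). Set against CD8 T cells, the effect on Nkg7 was higher by 1.90 (SE 0.29, adjusted p = 0.0331, 0.161% of 11827 genes called) in mono&prog and by 1.54 (SE 0.31, adjusted p = 0.0616, 0.721% of 12622 called) in neutrophils.

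**Figure D3:**
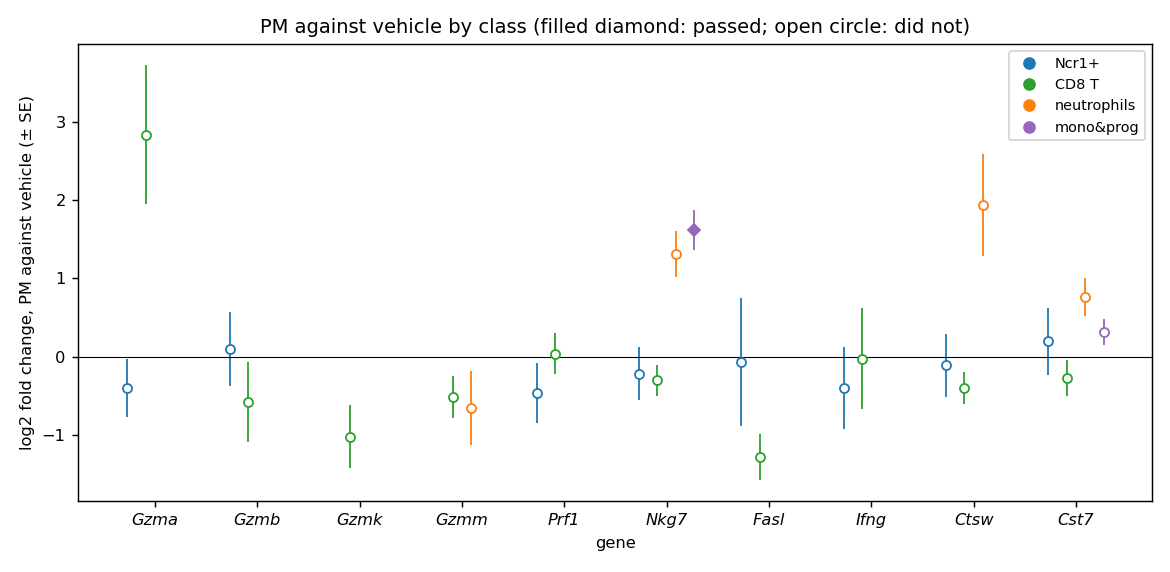
Log2 fold change of PM against vehicle with its SE (bars, edgeR) for the 10 genes in 4 classes, with filled diamonds for genes that passed and open circles for the rest. Nkg7 in mono&prog (1.61, SE 0.25) passed, its value in neutrophils is 1.31, and genes under the filter on low counts have no point.

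Within single clusters, Nkg7 could be tested in 20 of 32 and was called higher in 5 and lower in 0. High counts in 1 group are enough for the filter on low counts, so these numbers do not give a direction over clusters. Among the 5, Nkg7 entered the test through the PM libraries alone in neutrophil cluster 3 and in megakaryocytes and platelets. In neutrophil cluster 4, led by Orm1, Camp, Ltf and Ngp, of which Camp, Ltf and Ngp encode proteins of secondary granules, it was at 12.3 and 11.2 CPM with vehicle and at 50.4 and 43.3 CPM with PM (1.86, SE 0.18, edgeR, adjusted p = 3.1e-05, 2.74% of genes called higher). In neutrophil cluster 2, led by Ltf, it was at 4.14 and 1.97 CPM against 21.0 and 14.98 CPM (2.39, SE 0.33, adjusted p = 0.00183, 3.5% called higher). In neutrophil cluster 3, led by Acvrl1 and Mmp8, it was at 1.28 and 0.795 CPM against 9.66 and 6.53 CPM (2.79, SE 0.48, adjusted p = 0.00385, 3.98% called higher). Its UMIs there were 6 and 2 with vehicle, below the floor of 3 in replicate 2, and 50 and 34 with PM. These 3 clusters did not overlap between groups. Neutrophil cluster 0, with 15.4% and 19.8% of neutrophils with vehicle and 22.4% and 24.9% with PM, overlapped, at 2.05 and 5.33 CPM against 6.72 and 2.69 CPM (0.47, SE 0.58, adjusted p = 0.662). Neutrophil cluster 1 had 1.571 and 1.4998 CPM against 5.77 and 3.75 CPM and did not pass (1.65, SE 0.43, adjusted p = 0.0602). Neutrophil cluster 6, which holds histone and Fcnb transcripts of dividing precursors, had 37.1 and 46.1 CPM against 114 and 76.3 CPM and did not pass (1.15, SE 0.28, adjusted p = 0.131). Monocyte cluster 10 had 16.7 and 20.8 CPM against 58.8 and 42.7 CPM (1.44, SE 0.20, adjusted p = 0.00513, 1.2% called higher). Monocyte cluster 5 had 3.08 and 1.43 CPM against 16.98 and 5.74 CPM and did not pass (2.34, SE 0.62, adjusted p = 0.133). Cluster 10 held 31.3% and 35.2% of vehicle mono&prog cells against 39.8% and 38.9% of PM ones, without overlap. For cluster 5 these shares were 61.6% and 57.4% against 57.0% and 53.8%, also without overlap. The part of this shift in makeup in the higher Nkg7 level of mono&prog as a whole was not tested. Cst7 was called in cluster 4, with 0.903 and 0.621 CPM against 4.55 and 4.11 CPM (2.33, SE 0.53, adjusted p = 0.0215), and in no other of 13 clusters tested. Both vehicle libraries were too low there for the filter on low counts, so Cst7 entered the test through the PM libraries alone.

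In HSPC, where Nkg7 was most abundant among myeloid cells, it was at 382 and 397 CPM with vehicle and at 519 and 450 CPM with PM (0.28, SE 0.14, edgeR, adjusted p = 0.507, 0.252% of genes called). Cluster 9, led by Elane, Prtn3 and Mpo, had 583 and 646 CPM against 790 and 645 CPM, with an overlap. Cluster 12 had 295 and 231 CPM against 382 and 355 CPM (0.47, SE 0.14, adjusted p = 0.218). Cluster 17, led by the stem cell genes Cd34 and Hlf, had 159 and 170 CPM against 254 and 240 CPM (0.58, SE 0.12, adjusted p = 0.0977). In cluster 17 the HSPC granule genes went the other way, with 2720 and 2553 CPM against 2108 and 2212 CPM. Cst7 in HSPC was at 164 and 150 CPM against 172 and 167 CPM (0.08, SE 0.11, adjusted p = 0.844).

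The HSPC granule genes moved with Nkg7 in mono&prog and neutrophils. The HSPC granule genes summed to 1456 and 1518 CPM in mono&prog with vehicle and to 2670 and 2005 CPM with PM. In neutrophils they summed to 168 and 117 CPM against 364 and 243 CPM. Elane had a log2 fold change of 1.06 (SE 0.28, edgeR, adjusted p = 0.166) in mono&prog and 1.40 (SE 0.44, adjusted p = 0.197) in neutrophils. In neutrophil cluster 4, where Nkg7 was called, Elane (2.22, SE 0.23, adjusted p = 0.000205), Ctsg (2.04, SE 0.39, adjusted p = 0.00779), Mpo (1.61, SE 0.30, adjusted p = 0.0362) and Prtn3 (1.25, SE 0.22, adjusted p = 0.0170) were called higher too. In cluster 3 Mpo was called (1.60, SE 0.25, adjusted p = 0.00454). In neutrophil cluster 2 and monocyte cluster 10, where Nkg7 was called, no granule gene was (Elane, adjusted p of 0.0973 and 0.157). Nkg7 did not pass in neutrophil cluster 0, where Mpo (1.33, adjusted p = 0.0133), Elane (1.47, adjusted p = 0.0221) and Prtn3 (0.91, adjusted p = 0.0282) were called. Elane in neutrophil cluster 1 and monocyte cluster 5 and Ctsg in neutrophil cluster 6 were also called without Nkg7. Per 1000 UMIs of these granule genes, mono&prog held 7.22 and 8.49 Nkg7 UMIs with vehicle and 16.1 and 14.1 with PM, without overlap. Neutrophils held 74.5 and 123 against 122 and 110, with an overlap, and cluster 4 held 134 and 194 against 193 and 206, also with an overlap. Cluster 2 held 72.8 and 55.3 against 140.04 and 181, and cluster 3 held 27.03 and 20.6 against 60.02 and 67.3, both without overlap. B cells held 30.3 and 38.8 against 41.3 and 36.4, and HSPC 21.5 and 22.6 against 25.6 and 24.3. In B cells Nkg7 was at 2.73 and 2.99 CPM with vehicle and at 20.8 and 5.30 CPM with PM (2.22, SE 0.77, edgeR, adjusted p = 0.161, 5.27% of genes called). In monocyte cluster 10 the granule genes were at 2403 and 2447 CPM with vehicle and at 3987 and 2992 CPM with PM. Whether their transcripts were made in the myeloid cells or came from other cells was not tested. Their part in the myeloid Nkg7 values was not tested either. Without cells that held a Cd3 or Ncr1 UMI, the change in mono&prog was 1.53 (SE 0.24, adjusted p = 0.0356).

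**Figure D4:**
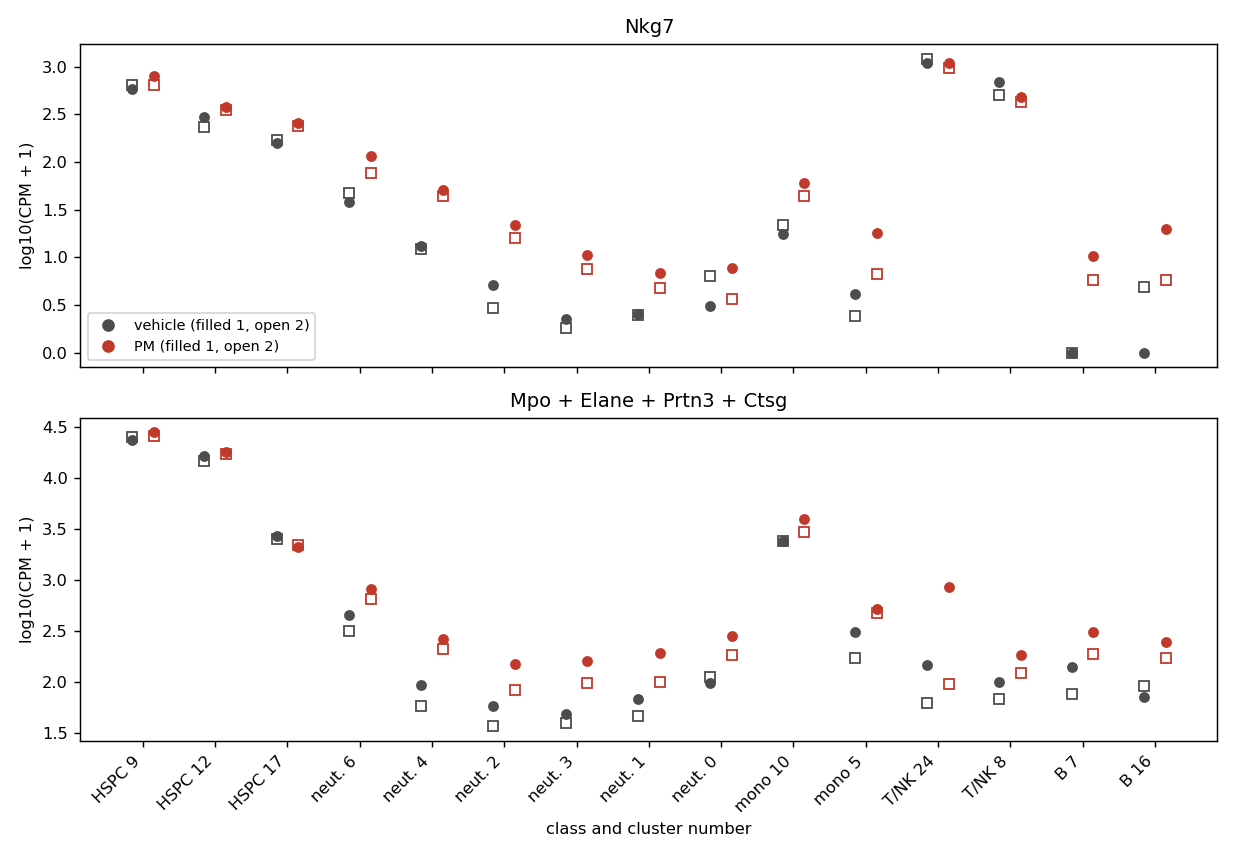
Nkg7 (top) and the sum of Mpo, Elane, Prtn3 and Ctsg (bottom) per library, as log10(CPM + 1), in 15 clusters named by class and number, with vehicle in grey, PM in red, replicate 1 filled and replicate 2 open. In both panels PM points lie above vehicle points in neutrophil clusters 1, 2, 3, 4 and 6 and monocyte clusters 5 and 10. The same holds in HSPC cluster 12 and in B cell clusters 7 and 16. In HSPC cluster 17 both PM points lie above both vehicle points for Nkg7 and below them for the sum.

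The other myeloid classes held fewer cells. Eosinophil/basophil progenitors had Nkg7 at 220 and 167 CPM with vehicle and at 340 and 250 CPM with PM (0.60, SE 0.21, edgeR, adjusted p = 0.479). Dendritic cells had Ctsw at 4.69 and 6.52 CPM against 19.7 and 17.2 CPM (1.68, SE 0.37, adjusted p = 0.0748, 0.498% of genes called), without overlap. T cell genes had 1 and 1 UMIs in these cells with vehicle and 63 and 6 with PM, and 0.625% and 0.909% of the cells against 3.59% and 2.31% held a Cd3 or Ncr1 UMI. Their part in the Ctsw values was not tested. In megakaryocytes and platelets, 98 cells in all, Nkg7 was called higher from 0 and 6 UMIs against 29 and 34 (adjusted p = 0.00606, 2.68% of 3915 genes called higher). Neutrophil genes took 4.84 and 3.88 of each 1000 UMIs there with vehicle and 45.7 and 104 with PM. Elane, with 1 and 1 UMIs against 27 and 95, was called as well (5.63, SE 0.95, adjusted p = 0.00126), and the part of transcripts from other cells in these values was not tested. The floor of 3 UMIs was not reached in vehicle replicate 1. DESeq2 did not call it (adjusted p = 0.498), nor did edgeR once vehicle replicate 2 (adjusted p = 0.508), PM replicate 1 (0.110) or PM replicate 2 (0.220) was left out.

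Among the lists, mono&prog held calls in both directions. Higher were 1 of 22 granule pathway genes tested, 1 of 10 cytokine and death ligand genes, 1 of 19 NK receptor genes, 0 of 16 transcription factor genes and 0 of 12 target-side genes, where 1.2% of all genes were called higher. Lower were 2 of the 16 transcription factor genes, where 65 of all 11772 genes were called lower. Klrk1, the gene of the activating receptor NKG2D, rose from 1.64 and 2.81 CPM to 12.6 and 13.98 CPM (2.57, SE 0.27, edgeR, adjusted p = 0.00205). Ccl5 rose from 2.10 and 2.09 CPM to 8.44 and 7.12 CPM (1.88, SE 0.27, adjusted p = 0.00919), and the adhesion receptor gene Adgrg1 from 9 and 9 UMIs to 47 and 28 UMIs (2.12, SE 0.43, adjusted p = 0.0381). The transcription factor genes Nfil3 (112 and 91.2 to 47.1 and 67.8 CPM) and Bhlhe40 (16.4 and 14.2 to 5.07 and 6.99 CPM) fell. T cell genes (Cd3d, Cd3e, Cd3g, Trac, Trbc1, Trbc2) had 22 and 18 UMIs in mono&prog with vehicle and 250 and 18 with PM, high in PM replicate 1 and at the vehicle level in PM replicate 2. In neutrophils 2 of 10 cytokine and death ligand genes, 1 of 15 NK receptor genes, 1 of 15 transcription factor genes, 0 of 22 granule pathway genes and 0 of 13 target-side genes were called higher, beside 5.77% of all genes. The chemokine genes Ccl3 (2.90 and 2.63 against 27.2 and 49.1 CPM) and Ccl4 (3.15 and 2.82 against 5.32 and 9.49 CPM), the chemokine receptor gene Cxcr3 (3 and 5 against 33 and 17 UMIs) and the transcriptional regulator Id2 (226 and 201 against 354 and 319 CPM) rose. The target-side list holds Fas and the interferon gamma receptors.

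Over 15 classes, the levels most like that of Prf1 were those of Il2rb (r = 0.97), Eomes (0.97), Klra9 (0.96), Xcl1 (0.96) and Klrb1c (0.96). Those most like Cst7 were Abca2 (0.92), Arsb (0.90), Spn (0.88), Fam189b (0.86) and Osbpl3 (0.85), and those most like Nkg7 were Abca2 (0.85), Arsb (0.84), Cables1 (0.84), Gata3 (0.84) and B4galt7 (0.83). These are Pearson correlations of log2(CPM + 1) over class means that share the same 4 libraries, and a description.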

How the data were processed

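The authors aligned 3′ droplet libraries with Cell Ranger 6.0.1, per the file headers, and deposited raw counts of UMIs per gene and barcode. The study's methods name GRCm38 and the submitters' processing notes GRCm39, so coordinates here are those of GENCODE M21. The cell filter follows the study's methods. Cells were clustered without the 10 genes (scanpy 1.11.5, 2500 variable genes, 30 components, leidenalg 0.10.2, resolution 1), clusters were named from marker lists, and T/NK cells were gated on raw UMIs. Doublets were called per library from Scrublet scores at 0.8% per 1000 barcodes, because the automatic threshold marked almost no cell in 2 libraries, and stayed in the data.

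Sums per library and class (at least 10 cells in each library) were tested over all genes with the quasi-likelihood test of edgeR 4.0.16, TMM-scaled and filtered by filterByExpr, with Benjamini-Hochberg adjustment. DESeq2 1.42.0 was an alternative. SE are those of the log2 fold change. For edgeR they were the absolute log2 fold change divided by the square root of the F value. They do not carry the degrees of freedom of the test, so calls rest on the adjusted p. How many of all genes had CPM without overlap between the groups was not computed for any class or cluster. The scripts were tested on simulated data. Of the lists, genes called in CD3-negative Ncr1-positive cells, CD8 T cells, neutrophils or mono&prog were named, at most 4 per list and class, and the 5 genes most like Prf1, Nkg7 and Cst7 among those with at least 20 CPM in a class. The HSPC granule genes, the fits within clusters and the interactions with CD8 T cells were added after values were seen. The members and lists were chosen with earlier results of these data known. The study's methods give 2 mice per group. Precision is limited by the spread between 2 libraries per group, with an SE for Nkg7 of 0.30 in neutrophils and 0.20 in CD8 T cells.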

Additional observations from a re-analysis of the deposited data

Results flagged for a closer look

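The effect of PM on Nkg7 differed between mono&prog and CD8 T cells in a test of the difference itself, with the library as a block. The difference was 1.90 on the log2 scale (SE 0.29, edgeR interaction, adjusted p = 0.0331), where 0.161% of 11827 genes were called. Nkg7 was higher in 2 of 2 PM libraries in mono&prog and lower in 2 of 2 in CD8 T cells. The lower level in CD8 T cells did not pass by itself, and the part of cells outside T/NK clusters in it was not tested. In those without Ccr7 and Lef1 UMIs Nkg7 overlapped, at 544 and 944 CPM with vehicle and 548 and 726 CPM with PM. Without vehicle replicate 1 the difference was 1.67 (adjusted p = 0.225) and without vehicle replicate 2 it was 2.09 (adjusted p = 0.325), so it did not pass when either was left out. The same difference for neutrophils was 1.54 (SE 0.31, adjusted p = 0.0616, 0.721% of 12622 genes called) and did not pass. Both comparisons were added after values were seen.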

How the results depend on the processing

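With 2 libraries per group, 1 library could decide a call. Without each library in turn, the members called changed in CD8 T cells, neutrophils, mono&prog, the other classes and the differences between classes. The calls over all genes changed in these classes as well. In CD8 T cells 2 members (Gzma, Fasl) were called without a filter on low counts, beside 93 of 15178 genes. In neutrophils 1 member, Nkg7, was called with DESeq2, without called doublets and at resolution 0.5. Over all genes, 613 of 18347, 782 of 11797 and 713 of 12038 were called there. Nkg7 and Cst7, 2 members, were called in neutrophils without TMM (1139 of 11946 genes) and without a filter (1345 of 18347 genes). In mono&prog 0 were called without called doublets, beside 153 of 11588 genes. After thinning to 1500 UMIs, members with a higher share in both PM libraries numbered 2 in CD8 T cells (0 before), 3 in neutrophils (5 before) and 1 in mono&prog (4 before), and those with a lower share 6 in CD8 T cells (8 before) and 0 in neutrophils (2 before). In a second draw, added after values were seen, the higher counts were 2, 5 and 2 and the lower counts 4 and 1, so that they depend on the draw. Of all genes with a UMI in these classes, 18.0%, 25.7% and 15.8% were higher and 14.2% and 15.2% lower in that draw. Before thinning, 23.8%, 17.5% and 19.8% of them were higher and 13.5% and 41% lower. These shares were not computed for the first draw. With 1 library left out, the lone sample is assumed to vary like the other group. The cause of these changes was not tested.

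Signs that changed belonged to members that had not passed. In CD3-negative Ncr1-positive cells these were Fasl (0.063 with DESeq2, 0.0075 without TMM, 0.0033 in NK subclusters), Gzmb (−0.26 without called doublets, −0.17 in NK subclusters), Ctsw (0.012 gated on Cd3e alone, 0.051 in T/NK clusters) and Cst7 (−0.48 in NK subclusters). Ifng turned in CD8 T cells (0.023 with DESeq2, 0.18 in T/NK clusters, 0.14 with Ncr1 at 0) and in those without Ccr7 and Lef1 (0.25 without called doublets, 0.45 in T/NK clusters). Leaving out each library gave ranges across 0 in CD3-negative Ncr1-positive cells for Ifng (−0.84 to 0.16), Fasl (−1.59 to 0.88), Ctsw (−0.61 to 0.27), Nkg7 (−0.60 to 0.071), Cst7 (−0.28 to 0.45) and Gzmb (−0.59 to 0.63), in CD8 T cells for Gzmb (−1.26 to 0.66), Ifng (−0.15 to 0.68) and Prf1 (−0.082 to 0.19), and in those without Ccr7 and Lef1 for Prf1 (−0.29 to 0.47), Nkg7 (−0.52 to 0.24), Ifng (−1.34 to 0.72), Cst7 (−0.52 to 0.15) and Gzmk (−0.53 to 0.064).

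Counts over all genes ran from 0 to 11 in CD3-negative Ncr1-positive cells (0 in the report), 3 to 135 in CD8 T cells (3), 0 to 47 in those without Ccr7 and Lef1 (8), 358 to 1345 in neutrophils (812) and 4 to 742 in mono&prog (206). The replicate numbers are not stated to pair the mice. Same-numbered libraries correlated in their deviations at 0.301 in CD3-negative Ncr1-positive cells, 0.110 in CD8 T cells, 0.186 in those without Ccr7 and Lef1, −0.133 in neutrophils and −0.0657 in mono&prog. With the replicate number as a block, 1 member (Nkg7, adjusted p = 0.0409) was called in neutrophils, the calls over all genes in CD8 T cells went from 3 to 31, and the members' calls in the other 4 main classes kept their number.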
